A study of Rattus norvegicus with 9 samples.

Results

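Reads of rat left ventricle that the deposited annotation placed on a microRNA (miRNA) precursor, and in none of its mature classes, were examined in 9 small RNA libraries. In the read-level table every distinct sequence carries a name, a species and a match type, and the members were all sequences of species Rattus norvegicus with the match type Precursor. There were 2567 of them among 31220 rat sequences and 46358 annotated sequences of any species. They carried 252 of the 420 rat names, all had 0 mismatches, and together they held 151323 of 6248238 rat reads, which is 2.42%.

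The libraries came from the free wall of the left ventricle of 3 male Sprague-Dawley rats aged 8 months, numbered as hearts 6, 7 and 8, for which the labels give no treatment, transgene or disease. Each heart gave 1 library of its outer layer (epicardium), 1 of its middle (mid-myocardium) and 1 of its inner layer (endocardium), so that each layer had 3 libraries. The layers were separated by depth and not by cell type, and in such bulk samples fewer cells of a type and less RNA per cell cannot be told apart. Annotated reads per library ran from 283991 in the mid-myocardium of heart 6 to 1428025 in the endocardium of heart 7, and levels are given as RPM, the read count scaled to a fixed total of annotated reads, on which 3 reads correspond to 2.10 to 10.6 RPM. The heart-specific miR-208 and miR-208b, which are encoded within the α and β cardiac myosin heavy chain genes, had Precursor reads in all 9 libraries, at 122 to 564 RPM and 1551 to 3527 RPM.

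A miRNA is cut from a longer transcript in steps. Drosha releases a hairpin in the nucleus, Dicer removes the loop in the cytoplasm, and a strand of the duplex that remains is loaded into an Argonaute protein. Nts 2 to 8 of the loaded strand, the seed, pair with target mRNAs, so the 5′ end fixes which mRNAs are recognised, whereas the 3′ end is often trimmed or extended after cleavage. Loops and flanks of the hairpin are normally degraded.

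By its name the Precursor class should hold hairpin sequence beyond the mature miRNA, and the positions of the reads went against that label. Each sequence was placed against the mature and star (*) entries, taken from the exact Mature and Mature* rows of the same table and from RefSeq for rat (GRCr8). Of the Precursor reads, 150036 (99.1%, 2417 sequences) overlapped an entry of either source by at least 10 nts, and 118932 (78.6%) overlapped an entry of the table. A remainder of 1287 reads (0.850%, 150 sequences, 69 names) overlapped no entry of either source. In the table the class Mature sub went to reads that lacked at most 2 nts at either end, and Mature super to reads with at most 3 nts added at either end. Reads that lacked 3 nts or more, or carried 4 nts or more beyond the entry, therefore stood under Precursor.

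The entries of the leading miRNAs are shown first, with the seed in capitals. Those of miR-22, miR-26a, miR-125a, miR-30a and miR-30e are as listed in the deposited table, and those of miR-208a, miR-208b and miR-199a-3p are from RefSeq GRCr8. miR-30a and miR-30e share a seed, and so do miR-208a and miR-208b.
miR-22: aAGCTGCCagttgaagaactgt
miR-26a: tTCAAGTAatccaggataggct
miR-125a: tCCCTGAGaccctttaacctgtga
miR-30a: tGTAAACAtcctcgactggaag
miR-30e: tGTAAACAtccttgactggaag
miR-208a: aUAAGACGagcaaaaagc
miR-208b: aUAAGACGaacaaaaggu
miR-199a-3p: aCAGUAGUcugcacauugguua

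Shortened reads of the same 5 names are shown next as their entries, with the nts missing from the read in capitals, because the missing 3′ nts placed these reads in the class. For miR-30a and miR-30e the 16-nt read is shown, which recurs in the family. The seed is intact in all 5.
miR-22: aagctgccagttgaagaacTGT
miR-26a: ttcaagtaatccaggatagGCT
miR-125a: tccctgagaccctttaacctgTGA
miR-30a: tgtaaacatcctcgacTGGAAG
miR-30e: tgtaaacatccttgacTGGAAG

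The main extended read of each of 3 names is shown as read, with the nts beyond the entry in capitals. The name miR-208 of the table is the miR-208a of RefSeq.
miR-208b: ataagacgaacaaaaggtTTGT
miR-208: ataagacgagcaaaaagcTTGT
miR-451: aaaccgttaccattactgagttTAGT

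In GRCr8 the miR-22 read lay at chr10:60805387-60805405 on the plus strand and the miR-26a read at chr8:127633063-127633081 on the plus strand, within the span of Ctdspl. The miR-125a read lay at chr1:67350689-67350709 on the plus strand within Spaca6, the 16-nt miR-30a read at chr9:33233946-33233961 on the plus strand, and the 16-nt miR-30e read at chr5:139637510-139637525 on the minus strand within Nfyc. The miR-208b read lay at chr15:32421644-32421665 within Myh7 and the miR-208 read at chr15:32395564-32395585 within Myh6, both on the minus strand, and the miR-451 read at chr10:63459585-63459610 on the plus strand. The reference table gives gene spans only, so exons and introns were not assigned. Of the members, 1938 sequences (118043 reads) lay in exactly 1 RefSeq hairpin, 230 in several and 399 (22140 reads, 14.6%) in none of the 419 hairpins used here.

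Precursor reads were shorter than the other rat reads. Their mean length was 19.3 ± 0.114 nts (SD, n = 9 libraries) against 22.1 ± 0.0489 nts for the other rat reads, and the groups of libraries did not overlap. Reads of 15 to 19 nts made up 61.2 ± 3.07% of Precursor reads, against 1.96 ± 0.204% of all rat reads. The most common length was 19 nts, with 32.1 ± 4.34% of Precursor reads and 1.20 ± 0.174% of all rat reads. At 22 nts, the main length of the rat reads with 48.6 ± 2.40%, Precursor reads held 12.4 ± 2.84%. Only 119 sequences with 247 reads were 30 nts or longer, up to 51 nts. Length is close to the criterion that defines the class, so these values describe it and are no test, and whether 15- to 19-nt reads also match elsewhere in the genome was not tested.

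**Figure D1:**
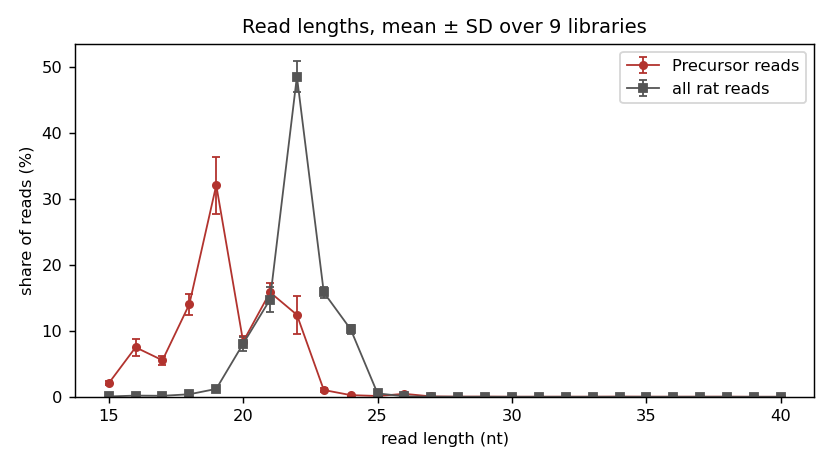
Share of reads (%) against read length (nt) for Precursor reads (red) and all rat reads (grey), as means with SD over the 9 libraries. Precursor reads peak at 19 nts with 32.1% and have a lower peak of 15.9% at 21 nts, whereas all rat reads peak at 22 nts with 48.6%.

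The members were many and unequal. Of the 2567 sequences, 1007 were read once over the 9 libraries and held 0.665% of the reads, and 1076 occurred in 1 library only. The 32 most frequent sequences held 65.8% of the reads, and the 309 sequences found in all 9 libraries held 91.8%.

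Shortening at the 3′ end was the main form. Reads that lacked at least 3 nts at the 3′ end of an entry of the table numbered 100420 (66.4% of Precursor reads), in 840 sequences under 178 names. Among them 66.8 ± 3.24% lacked 3 nts and 19.5 ± 3.35% lacked 4 nts. A loss of 5 nts was less common, at 5.01 ± 0.482%, than a loss of 6 nts, at 7.95 ± 1.75%, and 7 nts were missing from 0.577 ± 0.0411%. Over all rat reads that started at nt 1 of a listed entry, 1.30 ± 0.333% ended 3 nts short, 0.378 ± 0.0430% ended 4 nts short and 0.169 ± 0.0575% ended 6 nts short, compared with 9.47 ± 1.67% that ended 2 nts short and were classed Mature sub.

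The fall in abundance across the class limit differed in shape between miRNAs. miR-143, a miRNA of vascular smooth muscle and the leading name of the class, ended 2 nts short in 36.6 ± 6.56% of the reads starting at nt 1, 3 nts short in 2.52 ± 0.500% and 4 nts short in 1.04 ± 0.240%. For miR-125a, a member of the miR-10 family, the most common end was 2 nts short, at 66.7 ± 12.1%, and 9.54 ± 2.20% ended 3 nts short. For miR-26a the end 3 nts short was more common than the end 2 nts short, at 2.54 ± 0.465% against 1.60 ± 0.456%. miR-22, an abundant miRNA of cardiac and skeletal muscle, ended at its listed 3′ end in 94.9 ± 1.08%, 3 nts short in 0.714 ± 0.599% and 4 nts short in only 0.00549 ± 0.00314%.

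The loss of 6 nts came mainly from the miR-30 family. Reads of miR-30d that ended 6 nts short made up 1.92 ± 0.593% of its reads starting at nt 1, against 0.00982 ± 0.00882% that ended 5 nts short. The same shares were 0.738 ± 0.211% and 0.0651 ± 0.0269% for miR-30a, and 1.20 ± 0.423% and 0.0715 ± 0.0581% for miR-30e. These 16-nt reads numbered 3370 for miR-30d, 2226 for miR-30a and 1091 for miR-30e, out of 8108 reads of all names that lacked 6 nts. In the same 3 miRNAs the most common end lay 2 nts beyond the entry, at 59.5, 59.3 and 84.4%.

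**Figure D2:**
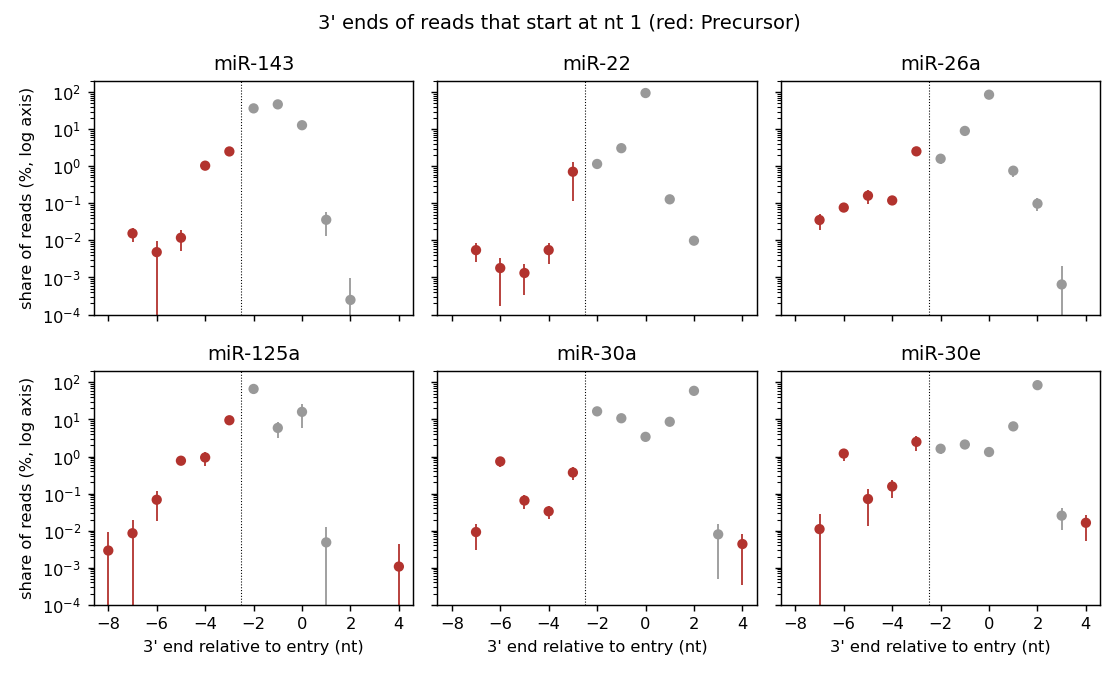
Share (%, log axis) of the reads of 6 miRNAs that start at nt 1 of the entry, by the position of their 3′ end relative to the entry (nt, negative for shorter), as means with SD over 9 libraries, red for Precursor and grey for mature classes. The dotted line marks the class limit between 2 and 3 nts short, and miR-30a and miR-30e show a separate peak at 6 nts short (0.738 and 1.20%).

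Shortening at the 5′ end was less frequent, and a loss of 3 nts or more takes part of the seed. It accounted for 15071 reads (9.96%) in 969 sequences under 140 names, of which 22.3 ± 2.26% lacked 3 nts and 32.9 ± 2.40% lacked 5 nts. Most Precursor reads kept the listed start, since 120754 reads (79.8%) began at nt 1 of the entry, 13586 (8.98%) began 1 or 2 nts away and 15428 (10.2%) began 3 nts or more inside it. miR-133a, a muscle miRNA, had 52 Precursor sequences, of which the leading one held 18.9% of their reads and lacked 7 nts at the 5′ end. In miR-142 and miR-101a, both among the 20 leading names, and in miR-10b, the main read started before the entry, which shifts the seed. Of miR-142, a leukocyte miRNA, 1741 reads (42.6% of its rat reads) began 2 nts before the entry and ended 3 nts short of it. Of miR-10b 635 reads (4.33%) had the same pair of offsets, and of miR-101a 2113 reads (4.87%) began 1 nt before the entry and ended 3 nts short. The added nts are shown in capitals.
miR-142: CCcataaagtagaaagcact
miR-10b: TAccctgtagaaccgaatttg
miR-101a: Gtacagtactgtgataact

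A further 31104 reads (20.6%, 292 sequences, 52 names) overlapped an entry that RefSeq lists and the table does not. Of these, 21174 reads would have been within the 2 nts removed or 3 nts added that the mature classes allow. miR-208b, which has no mature row in the table, gave 16161 of the 31104 reads on its 3p arm, of which 6872 were within that allowance, and 2 reads on its 5p arm. Its RefSeq entry ends at 18 nts, as does the miR-208 entry of the table, and the main reads of both were 22 nts long. The 22-nt miR-208b read had 953, 741 and 765 RPM in the epicardium of hearts 6, 7 and 8. It had 1370, 1630 and 1002 RPM in mid-myocardium (SD 316) and 1840, 1026 and 1110.2 RPM in endocardium (SD 448). All 6 libraries of mid-myocardium and endocardium were above the 3 of epicardium, and the differences did not pass the test across all sequences, as described with the layers.

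miR-199a, a miRNA known from fibroblasts, gave 11051 reads on its 3p arm, for which the table holds only the 5p entry. The read that lacked 1 nt of the RefSeq 3p entry numbered 6219, or 38.9% of all miR-199a reads, and the exact 3p entry numbered 2039. The exact 3p entry had 291, 296 and 149 RPM in epicardium, 299, 353 and 371 RPM in mid-myocardium, and 284, 166 and 287 RPM in endocardium. The 3 mid-myocardial libraries were above the other 6, by a narrow margin (299 against 296 RPM), and the differences did not pass the test across all sequences. For the summed miR-199a reads, limma gave adjusted p-values of 0.958 for mid-myocardium minus epicardium and 0.934 for mid-myocardium minus endocardium. How many of all sequences show such an order was not counted, here or for miR-208b. Smaller sets of the same kind came from miR-342-3p (679 reads), miR-339-3p (641), miR-148b-3p (613), miR-3585-3p (594) and miR-532-3p (173).

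Extended reads held 12534 reads (8.28%) in 248 sequences. Apart from miR-208b, the largest were the 22-nt read of miR-208 with 1646 reads, or 37.9% of the reads of miR-208, and the 26-nt read of miR-451 with 587 reads, or 11.8% of its reads. miR-451 is a red cell miRNA that is matured by Argonaute 2 without Dicer. Its 26-nt read ran from 35.4 to 121 RPM with a median of 74.9 RPM over the 9 libraries. Of the 119 sequences of 30 nts or longer, the most frequent, of miR-126*, was 38 nts long with 17 nts beyond the entry and had 22 reads in 6 libraries.

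Hairpin sequence clear of the entries of both the table and RefSeq came to 1287 reads, and 631 of them were miR-674. Against the table alone, the 31104 reads on entries that only RefSeq lists were also clear of any entry. Whether the sequences below are mature arms that both sources lack was not tested. Its 15 sequences lay on the 3p side of the hairpin, for which neither source lists an entry, and the leading one, at chr3:124507215-124507234 on the plus strand, had 393 reads. It is shown because it was the most frequent sequence outside every entry used.
miR-674: cacagctcccatctcagaac
In miR-214, a miRNA that shares a transcript with miR-199a, 11 sequences with 76 reads lay between the listed arms. The leading one had 50 reads, at chr13:77121672-77121693 on the plus strand, which is nts 28 to 49 of the hairpin and within the span of Dnm3. It is shown because the RefSeq 5p entry of miR-214 ends at its first nt, and its levels in the 9 libraries ran from 1.07 to 10.6 RPM.
miR-214: tgcctgtctacacttgctgtgc
In hairpins for which RefSeq lists both arms, 180 reads (0.119%, 41 sequences, 22 names) lay between the arms and 37 reads outside them. Hairpins with only 1 listed RefSeq arm gave 772 reads, and 298 reads lay in no RefSeq hairpin used here. An 18-nt read downstream of the miR-30e 5p entry had 23 reads over all 9 libraries.

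The class was concentrated in few names. miR-143 held 13.8% of its reads, the 5 leading names held 44.7%, and the 20 leading names held 80.0%. Mean levels of Precursor reads over the 9 libraries were 2635 ± 619 RPM for miR-143, 2208 ± 666 RPM for miR-208b, 1522 ± 381 RPM for miR-199a, 1270 ± 822 RPM for miR-22, 1231 ± 194 RPM for miR-26a and 1212 ± 626 RPM for miR-125a. The other 14, from miR-30d at 697 ± 185 RPM to miR-27b with miR-27a at 243 ± 37.9 RPM, comprised miR-30a, miR-30e, miR-181a, miR-10a, miR-133a, let-7f, miR-101a, let-7a with let-7c, miR-29a, miR-125b, miR-142 and miR-191. The SDs are large beside the gaps, so the orders of miR-22, miR-26a and miR-125a and of miR-30a and miR-30e (604 ± 126 and 592 ± 104 RPM) are not resolved. In 18 of the 20, more than 95% of the Precursor reads were shortened, and the exceptions were miR-208b and miR-199a.

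**Figure D3:**
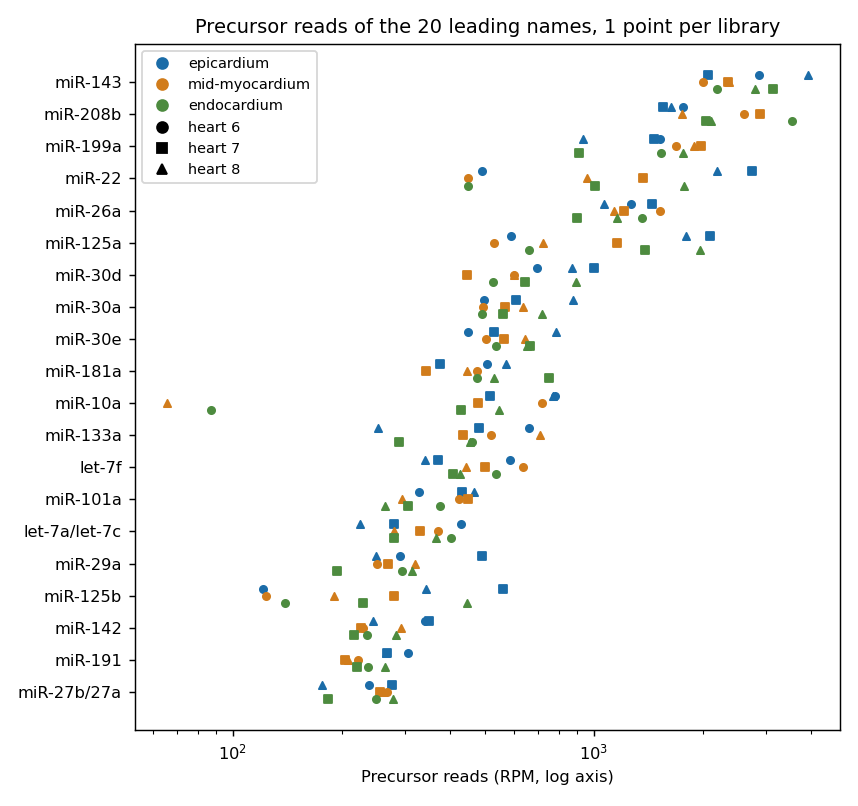
Level of Precursor reads (RPM, log axis) of the 20 names with the highest mean, 1 point for each of the 9 libraries, coloured by layer and shaped by heart. The layers overlap for nearly all names, the 3 libraries of heart 6 (circles) are lowest for miR-22, miR-125a and miR-125b, and miR-10a has 2 low points at 65.5 and 87.1 RPM.

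Precursor reads made up very different shares of the reads of each miRNA. Over the 176 names with Precursor reads and at least 100 rat reads, the median share was 2.12%, with quartiles of 0.884 and 6.04% and a range from 0.0565 to 97.6%. The share was above 50% in 11 names, 10 to 50% in 21, 1 to 10% in 91 and at most 1% in 53. Of the leading names, 4 had low shares, at 0.891 ± 0.575% for miR-22, 0.536 ± 0.0574% for miR-133a, 2.38 ± 0.355% for miR-143 and 2.59 ± 0.409% for miR-26a, whereas miR-125a had 9.60 ± 1.497%.

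The 10 highest shares fell into recognisable kinds. Names without a mature row, or with only the other arm listed, were miR-208b (97.6 ± 0.383%), miR-409 (88.6 ± 9.35%), miR-342 (83.4 ± 3.23%), miR-199a (69.4 ± 2.66%), miR-339 (58.0 ± 5.69%) and miR-674 (75.5 ± 11.3%), beside miR-598 (83.0 ± 10.7%). Names that join paralogs with nearly the same sequence were let-7a with let-7c (90.3 ± 1.61%), miR-23a with miR-23b (57.9 ± 7.35%) and miR-27b with miR-27a (57.9 ± 4.42%). Positions counted from the 5′ end of the entry, the difference is A19G between let-7a and let-7c, T19C between miR-27b and miR-27a, and T19A between miR-23a and miR-23b. All (100%) of the Precursor reads under these joined names ended before nt 19, where the paralogs cannot be told apart. An exact read that covers nt 19 cannot match both paralogs, so this follows from the joined name and is no test. Reads that end before nt 19 lack 3 nts or more of these entries, which places exact ones in the class. Names joining several entries numbered 35 in the class and held 11.5% of its reads.

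By the lists of cell type markers, Precursor reads of smooth muscle (miR-143 and miR-145) made up 14.02% of the class, and ran from 2039 to 3944 RPM. Fibroblast names (miR-199a and miR-214) made up 7.42%, at 922 to 1994 RPM. Cardiomyocyte names other than miR-208b made up 4.03%, at 480 to 1404 RPM, where 6 of 7 names had Precursor reads, and with miR-208b they made up 14.7%, at 2221 to 4215 RPM. Leukocyte names (miR-142, miR-150 and miR-223) made up 1.96%, at 321 to 522 RPM, endothelial miR-126 made up 0.927%, at 106 to 263 RPM, and red cell names made up 0.540%, at 62.3 to 169.9 RPM. Each of these lists had Precursor reads in all 9 libraries. Of the single markers, miR-223 (21 reads) was at 0 in at least 1 library, and 2 of the 3 red cell names listed were found as rat names (miR-451 and miR-144). The part of cell composition in the levels was not tested. Of the families, the miR-10 family held 12.5% of the class, the miR-30 family 10.3% and the let-7 family 6.02%.

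The comparison of layers asked whether the class, its names or its sequences followed depth in the ventricular wall. The Precursor share of rat reads in epicardium was 2.20, 2.65 and 2.73% in hearts 6, 7 and 8 (2.53 ± 0.288%, n = 3). In mid-myocardium it was 2.17, 2.38 and 2.13% (2.23 ± 0.135%), and in endocardium 2.25, 2.47 and 2.74% (2.49 ± 0.248%). The layers overlapped, and the exact permutation test over the 280 groupings of the 9 libraries gave p = 0.289 (0.111 when layers were exchanged only within hearts, where the smallest p is 0.0278). The counting error was smaller than these differences, with 95% Wilson intervals from 2.10 to 2.16% for the lowest library and from 2.70 to 2.78% for the highest, and it covers the sampling of reads only. Without epicardium of heart 7, epicardium of heart 8 or endocardium of heart 6, endocardium and not epicardium had the highest mean.

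**Figure D4:**
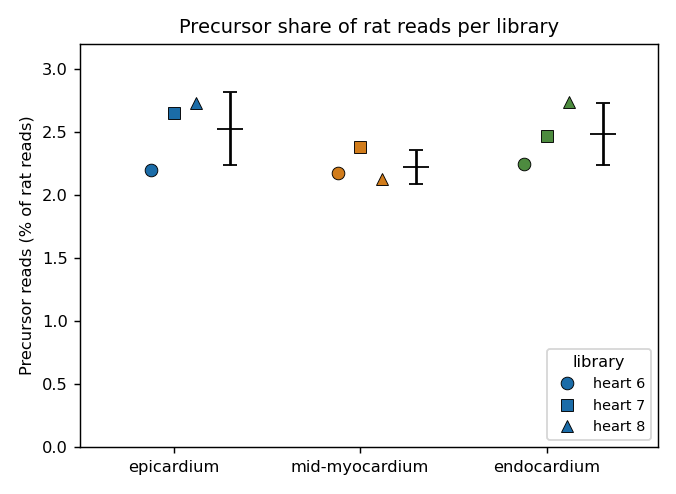
Precursor reads as a percentage of rat reads in each of the 9 libraries, by layer, with the symbol giving the heart and the bar the mean and SD of 3 libraries. The 3 layers overlap, the 9 libraries range from 2.13 to 2.74%, and the 3 libraries of heart 6 (circles) lie between 2.17 and 2.25%.

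The make-up of the class by position did not pass the test between layers either. Reads shortened at the 3′ end of a table entry were 70.7 ± 6.69% of Precursor reads in epicardium, 59.8 ± 1.33% in mid-myocardium and 64.8 ± 7.79% in endocardium (exact permutation p = 0.193, adjusted p = 0.444 over 23 measures of position). Reads on entries listed only in RefSeq were 16.8 ± 3.04, 24.98 ± 2.47 and 22.9 ± 6.14% (p = 0.132, adjusted p = 0.400 by the same exact permutation test).

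No Precursor sequence passed the threshold between layers. limma, fitted across 3395 annotated sequences, called 0 of 289 members for endocardium minus epicardium, mid-myocardium minus epicardium and mid-myocardium minus endocardium, where 0% of all sequences were called. At an unadjusted p under 0.05 there were 10, 11 and 12 members (3.46, 3.81 and 4.15% of members, against 2.95, 3.71 and 5.21% of all sequences). edgeR and DESeq2 also called 0 in each, with 12, 10 and 10 members and 7, 3 and 5 members at an unadjusted p under 0.05. The share over all sequences at that p was not computed for edgeR or DESeq2. The median log2 difference of the members was -0.03, -0.12 and -0.04, beside 0.01, -0.03 and -0.04 over all sequences.

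Summed per name, 0 of 97 Precursor sums passed in the same contrasts, and 0% of 1309 sums were called by limma. The counts at an unadjusted p under 0.05 were 2, 4 and 4 with limma (2.06, 4.12 and 4.12% of members, against 2.83, 3.51 and 2.98% of all sums). They were 2, 8 and 4 with edgeR and 1, 4 and 2 with DESeq2, for which the share over all sums was not computed. miR-208b had 1766, 1551 and 1630.4 RPM in epicardium, 2613, 2877 and 1756 RPM in mid-myocardium and 3527, 2045 and 2111 RPM in endocardium. Every endocardial library was above every epicardial library, and the log2 difference of 0.59 ± 0.33 (SE) had an adjusted p of 0.998. miR-208 did not share this order, with means of 181 RPM in endocardium and 195 RPM in epicardium. The 2 sums with an unadjusted limma p under 0.05 between endocardium and epicardium were both lower in endocardium. Their means were 63.8 against 190 RPM for miR-10b and 11.2 against 24.1 RPM for miR-409 (limma adjusted p = 0.998 for each). miR-22 had 491, 2745 and 2189 RPM in epicardium, 447, 1371 and 959 RPM in mid-myocardium and 447, 1005 and 1775 RPM in endocardium. In each of the 3 hearts the epicardial level was above the other layers, and the hearts differed widely within each layer. The log2 difference between endocardium and epicardium was -0.63 ± 0.74 (SE, adjusted p = 0.998), and that between mid-myocardium and epicardium was -0.77 ± 0.74 (SE, adjusted p = 0.958). With heart as a block the unadjusted p fell from 0.414 to 0.134 and from 0.318 to 0.0738, and limma gave adjusted p-values of 0.996 and 0.809. miR-10a had 2 libraries apart, with 65.5 RPM in the mid-myocardium of heart 8 and 87.1 RPM in the endocardium of heart 6 against 427 to 778 RPM in the other 7. Its Precursor share of its own reads was 1.88 and 2.28% there, within the 1.85 to 2.74% of the other 7.

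The share of a miRNA's reads in the class, which does not move with the level of the miRNA, was tested in 64 names and passed in 0 after adjustment. The smallest exact permutation p was 0.0214 (adjusted p = 0.914), for miR-30a, with 1.67 ± 0.0752% in epicardium, 1.26 ± 0.138% in mid-myocardium and 1.37 ± 0.150% in endocardium. let-7e and miR-499 were the others below an unadjusted 0.05.

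The comparison of hearts asked whether the class followed the animal. The Precursor share of rat reads averaged 2.21 ± 0.0384, 2.50 ± 0.138 and 2.53 ± 0.352% for hearts 6, 7 and 8 (exact permutation p = 0.232). Without the mid-myocardium of heart 8, the difference between the highest and lowest heart was 0.532 percentage points (exact permutation p = 0.0107). Reads that overlap no entry differed between hearts, with means of 0.670 ± 0.0231, 0.981 ± 0.0569 and 0.820 ± 0.0611% of Precursor reads for hearts 6, 7 and 8. The exact permutation p of 0.00357 is the smallest this design allows (adjusted p = 0.0411 over the 23 measures of position). The hearts did not overlap, and the measure was picked out because of its values. Its largest part, hairpins with only 1 listed arm and mostly miR-674, made up 0.294 ± 0.0508, 0.666 ± 0.0898 and 0.505 ± 0.0561% (exact permutation p = 0.00357, adjusted p = 0.0411). The leading miR-674 read had 13.8, 28.2 and 16.9 RPM from epicardium to endocardium of heart 6. The matching levels were 98.6, 77.0 and 54.6 RPM for heart 7 and 70.8, 30.4 and 65.8 RPM for heart 8. All 3 libraries of heart 6 were below the other 6, and the read itself did not pass across all sequences (limma F test, adjusted p = 0.233).

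Across all sequences, limma's F test of heart called 7 of 289 members (2 in miR-22 and 1 in each of miR-99a, miR-99b, miR-100, miR-29a and miR-351), where 33 of 3395 sequences, or 0.972%, were called. All 7 were shortened at the 3′ end, 6 of them by 3 or 4 nts and miR-351 by 6 nts. The reads of miR-99a, miR-100, miR-29a and miR-351 and the 18-nt miR-22 read reached the filter of 10 reads only in hearts 7 and 8. They entered the test through the hearts where they are high, so their calls are no independent evidence of a lower level in heart 6. In all 7 each library of heart 6 was below every library of hearts 7 and 8, and the log2 differences from heart 6 ran from 2.43 to 3.98. The 7 were picked by a test of the same hearts, so this separation describes them and is no further evidence. The share of all sequences with heart 6 below the other hearts was not computed. miR-99a, miR-99b and miR-100 belong to the miR-10 family and share a seed, and their reads are shown as entries with the missing nts in capitals.
miR-99a: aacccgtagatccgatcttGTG
miR-100: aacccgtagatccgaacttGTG
miR-99b: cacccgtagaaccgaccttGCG
miR-29a: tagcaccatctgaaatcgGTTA
miR-351: tccctgaggagccctttgaGCCTGA

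The 19-nt miR-22 read had 137, 127 and 107 RPM in the epicardium, mid-myocardium and endocardium of heart 6, against 2399, 1149.7 and 796 RPM in heart 7 and 1944, 586 and 1479.9 RPM in heart 8 (limma F test, adjusted p = 0.0286). As a share of the miR-22 reads it was lowest in heart 6 (0.0767 ± 0.0112%), against 1.05 ± 0.396% for heart 7 and 0.944 ± 0.572% for heart 8 (exact permutation p = 0.0857). The same test of the share gave unadjusted p-values of 0.00357 for the 18-nt miR-22 read, 0.025 for miR-99b, 0.0286 for miR-99a, 0.0357 for miR-100, 0.111 for miR-351 and 0.125 for miR-29a by exact permutation. The 7 reads had been chosen for their levels between the same hearts, so these shares are no independent evidence. The Precursor share of a miRNA's own reads was also tested between hearts in 64 names, and passed in 0 after adjustment. Before adjustment, 9 of the 64 names had an exact permutation p under 0.05. Heart 6 was not lowest for a miR-22 read shortened at the other end. The 17-nt read lacking 5 nts at the 5′ end had means of 119 ± 5.58, 81.6 ± 20.7 and 101 ± 31.4 RPM from heart 6 to heart 8 (limma F test, adjusted p = 0.874).

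The miR-99b read had 14.9, 7.04 and 9.84 RPM in the 3 layers of heart 6 and 25.6 to 213 RPM in the other 6 libraries (adjusted p = 0.0402). The miR-99a read had 1, 0 and 0 reads in the layers of heart 6 and 6 to 27 reads in each other library, and the miR-351 read had 0 reads in all 3 layers of heart 6 and 2 to 25 elsewhere. Those of miR-100, miR-29a and the 18-nt miR-22 read likewise had 0 to 5 reads in each library of heart 6. The annotated reads of heart 6 were 939580 in epicardium, 283991 in mid-myocardium and 711437 in endocardium. The epicardium of heart 7, with 770583, had 14 to 33 of each of these 5 reads, and the mid-myocardium of heart 8, with 1052663, had 2 to 11. The part of read depth in these counts was not tested. For miR-125a the 21-nt read had mean levels of 459 ± 27.7, 1299 ± 436 and 1267 ± 621 RPM from heart 6 to heart 8 (adjusted p = 0.278), and the Precursor share of its own reads was 9.78 ± 0.610, 9.04 ± 1.25 and 9.97 ± 2.51% in the same order.

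The 16-nt reads of the miR-30 family had their highest means in heart 8, without passing the test. For miR-30e they had 52.01 to 80.9 RPM in heart 6, 93.8 to 130.1 RPM in heart 7 and 197 to 283 RPM in heart 8 (adjusted p = 0.135), and the hearts did not overlap. For miR-30a the means were 177 ± 8.78, 261 ± 31.2 and 421 ± 96.5 RPM (adjusted p = 0.348). The calls between hearts rested on the settings. They numbered 0 with a pseudocount of 0.1, 14 with a pseudocount of 10, 1 without the layer term and 13 with edgeR. Leaving out a library gave 0 in 7 of 9 cases, 7 without the mid-myocardium of heart 8 and 8 without the endocardium of heart 7. These counts give the spread over settings only and are not set against the counts over all sequences in each setting. Heart is also the animal, and any handling or library preparation that differed between animals cannot be told apart from it.

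**Figure D5:**
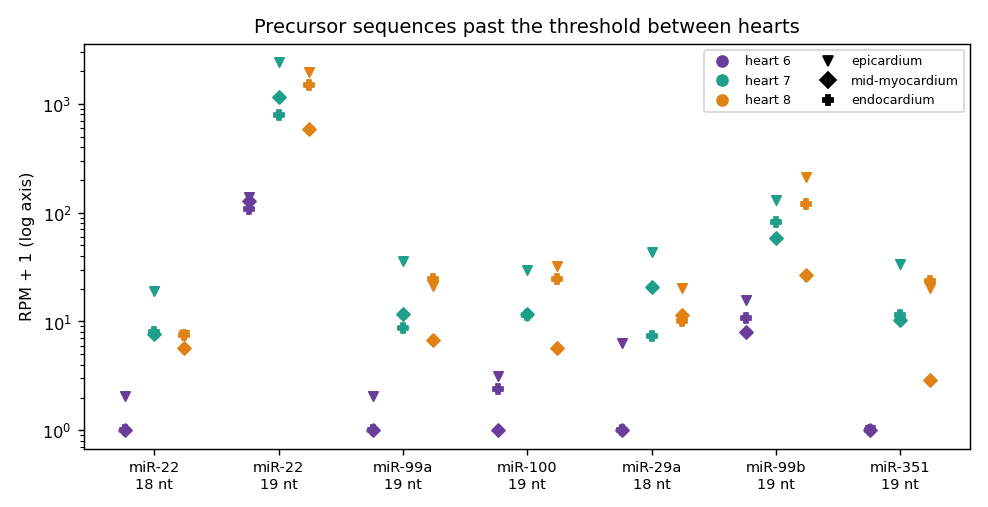
Level (RPM + 1, log axis) of the 7 Precursor sequences past the threshold between hearts, with colour for the heart and shape for the layer, 1 point for each library. The points of heart 6 lie below those of hearts 7 and 8 for each sequence, for example 107 to 137 RPM against 586 to 2399 RPM for the 19-nt miR-22 read.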

How the data were processed

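Small RNA was extracted, sequenced with the TruSeq small RNA kit and annotated by the authors with CLC Genomics Workbench 4.0 against miRBase 18. The read-level values were deposited as RPM over the annotated reads of each library, and whole reads were recovered from 100% of them within 0.01. Of the 3 processed files, 1 was used, since the others do not separate match types. The members and lists were chosen with earlier results of these data known.

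Reads and entries were compared without mismatches, with a minimum overlap of 10 nts, and the placement and the fits were tested on simulated data. Reads were placed first on the entries of their own name in the deposited annotation. Those without one were placed on the entries of any RefSeq hairpin (GRCr8) that held the read, whatever its name. Failing that, they were placed on RefSeq entries with the same miRNA number, such as all of let-7. RefSeq gave 724 mature sequences and 419 hairpins. No genome was used, so matches outside hairpins were not searched.

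Sequences, and sums per species, name and match type, that reached 10 reads in any library were tested on log2(RPM + 1) by limma 3.58.1 over all 9 libraries with a term for layer, and hearts by its moderated F test with layer as covariate, with Benjamini-Hochberg adjustment over all features and a threshold of 0.05. edgeR 4.0.16 and DESeq2 1.42.0 on the recovered reads were alternatives. Single values were tested by exact two-sided permutation over 280 groupings, where 3 against 3 libraries cannot go below 0.1. Shares per miRNA needed 100 rat reads in each library. The names described are the 20 with the highest mean Precursor RPM, the 10 with the highest share of at least 100 rat reads, those past the threshold and the share with the smallest p. Other sequences are named for their position and were chosen after their values were seen, including those of miR-10b, miR-214, miR-451 and miR-674. Heart numbers in the labels pair the layers, since each heart gave all 3. Deviations from the layer means correlated at a mean of 0.138 within hearts (9 pairs) and -0.07 between hearts (18 pairs). Levels of near-identical paralogs are uncertain, because annotation can split their reads.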

Additional observations from a re-analysis of the deposited data

How the results depend on the processing

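The fits by layer, of sequences and of sums, gave 0 calls among Precursor sequences in all 96 alternatives run (pseudocounts of 0.1 and 10, no filter, the replicate block, 6 libraries only, edgeR, DESeq2 and each library left out). With heart as a replicate block, pairing the layers, the count was 0 in each contrast and the test of the Precursor share within hearts gave 0.301 percentage points between the highest and lowest layer (p = 0.111 by exact permutation), and the pairing changed no call. The difference between layers ran from 0.251 to 0.465 percentage points over the libraries left out (exact permutation p = 0.0893 to 0.493). The difference between hearts, 0.328 points as reported, ran from 0.294 to 0.532 points, and 0.532 was without the mid-myocardium of heart 8. Precursor sequences called between hearts numbered 0 at a pseudocount of 0.1, 14 at 10, 1 without the layer term and 13 with edgeR, and 0 to 8 over the libraries left out. The cause was not tested, and these counts are not set against those over all sequences in each setting. Reads that overlap no entry, an alternative chosen after seeing the data, kept the same highest and lowest heart without any library (0.292 to 0.344 points, exact permutation p = 0.00357 to 0.0107). Including the class Precursor variant moved 12 of 30 named levels and shares by more than 1 SD (4 levels and 8 shares, among them miR-199a from 69.4 to 89.6% and miR-339 from 58.0 to 80.4%). Keeping only sequences with at least 10 reads moved 7 of 30, all of them shares (miR-339 to 64.1%), and leaving out a library moved 0 of 270. In heart 6, 5 of the 7 sequences called between hearts had 0 to 5 reads in each library, so their differences from heart 6 rest on few reads. These 5 reached the filter of 10 reads only in hearts 7 and 8.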
